A study of Mus musculus with 4 samples.

Results

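Supporting cells and hair cells of the cochlea arise from a common prosensory field, and 10 genes that mark prosensory progenitors or supporting cells were followed here. They were taken by symbol from 23420 genes quantified in cultured mouse cochleae, and all 10 had enough reads to be tested, as did 16087 genes in all. The genes are the transcription factor genes Sox2, Sox9, Prox1 and Gata3, the receptor genes Fgfr3, Lgr5 and Ngfr, and Slc1a3, Fabp7 and S100a1, which encode a transporter, a lipid carrier and a calcium-binding protein. Cochleae of Atoh1-GFP mice on the CD1 background, in which the Atoh1 enhancer drives GFP, were taken at postnatal day 1, kept overnight in organ culture with penicillin in the medium, and left untreated or given 0.5 mM gentamicin for 3 h. After enzymatic dissociation the cells were sorted by FACS into GFP-positive hair cells (HC) and GFP-negative non-hair cells, with 3 replicates in each of 4 groups: control and gentamicin-treated hair cells, and control and gentamicin-treated non-hair cells. The design therefore asks how these genes differ between the sorted populations, and whether the aminoglycoside, which kills hair cells later, changed their mRNA in either population at this early time.

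The sort bears on every value below. According to the methods, GFP is also present at a low level in some supporting cells next to the inner hair cells, and cells with weak GFP were gated out of both samples. The GFP-negative sample is a mixture of supporting cells, the epithelial ridges and the surrounding tissue, so a supporting cell gene is diluted there by other cells. All 12 hair cell markers examined, from the transcription factor gene Atoh1 to the synaptic gene Otof, were higher in control hair cells, by 4.04 to 9.85 on the log2 scale, and their summed normalized read number was 13720–14330 in control hair cells and 295–303 in control non-hair cells. Values are the authors' normalized read numbers plus 1, so a gene without reads stands at 1. The depth was 22400632–28152238 reads on genes per replicate.

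In the developing organ of Corti, Sox2 sets up the prosensory field and is then kept by supporting cells. Hair cells that express Atoh1 present the Notch ligands Dll1 and Jag2 to their neighbors, and Notch target genes of the Hes and Hey families hold those neighbors in the supporting cell fate. Fgfr3 responds to FGF ligands and takes part in pillar cell formation, Lgr5 is a receptor for R-spondins that strengthens Wnt signaling and marks supporting cells with progenitor capacity, and Ngfr, the p75 neurotrophin receptor, is found on pillar cells. Several of the 10 genes are not exclusive to supporting cells: Ngfr, Slc1a3 and Fabp7 are also glial genes, Sox9 is a main regulator of cartilage, and Gata3 is also expressed by hair cells.

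Positions are on the mm10 assembly, with gene bodies from GENCODE M21. The transcription factor genes are Sox2 (chr3:34650405-34652461, plus strand), Sox9 (chr11:112782224-112787760, plus strand), Prox1 (chr1:190118035-190170714, minus strand) and Gata3 (chr2:9857078-9890034, minus strand). The receptor genes are Fgfr3 (chr5:33721674-33737068, plus strand), Lgr5 (chr10:115450311-115587780, minus strand) and Ngfr (chr11:95568818-95587735, minus strand). Slc1a3 (chr15:8634124-8710764) and S100a1 (chr3:90511034-90514392) are on the minus strand, and Fabp7 (chr10:57784881-57788450) is on the plus strand. Exons of Fgfr3, Gata3 and Prox1 overlap other annotated genes over 13.9%, 5.83% and 1.59% of their length, mostly on the opposite strand. Whether reads were counted by strand is not given in the sources used here, so a part of the reads of these 3 genes cannot be assigned with certainty. No annotated exon of another gene overlaps the other 7 genes.

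Promoter sequence was available from RefSeq (assembly GRCm38.p6) for 8 of the 10 genes, in 10 windows of 250 bases before a transcription start. Shown here are the exon-free parts of the windows of 4 genes: Slc1a3 and Ngfr, which were the members lower in hair cells, and Prox1 and Fabp7, whose windows held motifs tied to the Notch and Atoh1 pathways. Letters in capitals are the core of the RBPJ site, through which Notch acts with the letters TGGGAA, read as TTCCCA from the other strand, or E-boxes that basic helix-loop-helix factors such as Atoh1 can bind (CAGATG or CATCTG).
Slc1a3, chr15:8710808-8711057, minus strand: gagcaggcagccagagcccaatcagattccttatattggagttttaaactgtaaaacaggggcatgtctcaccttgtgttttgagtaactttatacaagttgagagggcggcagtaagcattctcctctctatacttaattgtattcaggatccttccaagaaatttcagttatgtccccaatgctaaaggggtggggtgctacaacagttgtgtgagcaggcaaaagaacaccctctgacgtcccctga
Ngfr, chr11:95587736-95587948, minus strand: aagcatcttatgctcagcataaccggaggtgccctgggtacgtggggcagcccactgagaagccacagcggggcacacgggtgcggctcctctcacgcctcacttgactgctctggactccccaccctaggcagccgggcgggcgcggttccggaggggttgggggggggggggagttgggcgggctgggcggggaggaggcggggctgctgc
Prox1, chr1:190170828-190171077, minus strand: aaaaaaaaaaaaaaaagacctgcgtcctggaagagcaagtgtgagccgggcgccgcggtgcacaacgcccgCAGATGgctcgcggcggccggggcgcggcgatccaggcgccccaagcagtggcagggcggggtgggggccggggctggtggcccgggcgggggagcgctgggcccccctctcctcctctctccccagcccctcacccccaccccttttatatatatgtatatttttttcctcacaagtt
Fabp7, chr10:57784673-57784880, plus strand: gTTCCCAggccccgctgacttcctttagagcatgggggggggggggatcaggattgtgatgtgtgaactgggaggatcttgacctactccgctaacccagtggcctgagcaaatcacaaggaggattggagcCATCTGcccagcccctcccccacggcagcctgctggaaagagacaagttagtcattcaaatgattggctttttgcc
The Fabp7 window held both motifs, the RBPJ core 249 bases and the E-box 118 bases before the start. Among the 10 member windows, the RBPJ core was present in 2 (Fabp7 and a further window of Prox1), against 21.6% of all 32851 promoter windows of this length searched on both strands. The E-box CAGATG was also present in 2, Fabp7 and Prox1 (14.4% of all windows), and CAGCTG, its own reverse complement, in 2, Fgfr3 and Ngfr (13% of all windows). In Ngfr it stood 25 bases before the start, within the annotated exon and outside the part shown. A SOX motif (AACAAT, present in 9.42% of all windows) and a GATA motif (AGATAA, 9.99%) were not found in any of the 10. The GC content of the windows ran from 44.8% in Slc1a3 to 72.8% in a window of Fgfr3, beside a median of 52.4% over all windows.

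The first comparison set control hair cells against control non-hair cells. Of the 10 genes, S100a1, Lgr5 and Gata3 were higher in hair cells, Ngfr and Slc1a3 were lower, and Sox2, Sox9, Prox1, Fgfr3 and Fabp7 did not pass the test (limma, Benjamini-Hochberg adjusted p under 0.05 over all genes tested). For all genes, 74% passed in this comparison, 31.9% as higher and 42.2% as lower in hair cells, so 5 called members of 10 is no more than the background share. The median difference of the 10 genes was 0.48 on the log2 scale, where it was -0.12 over all genes tested. In these bulk samples, fewer cells of a type and less RNA per cell cannot be told apart.

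**Figure D1:**
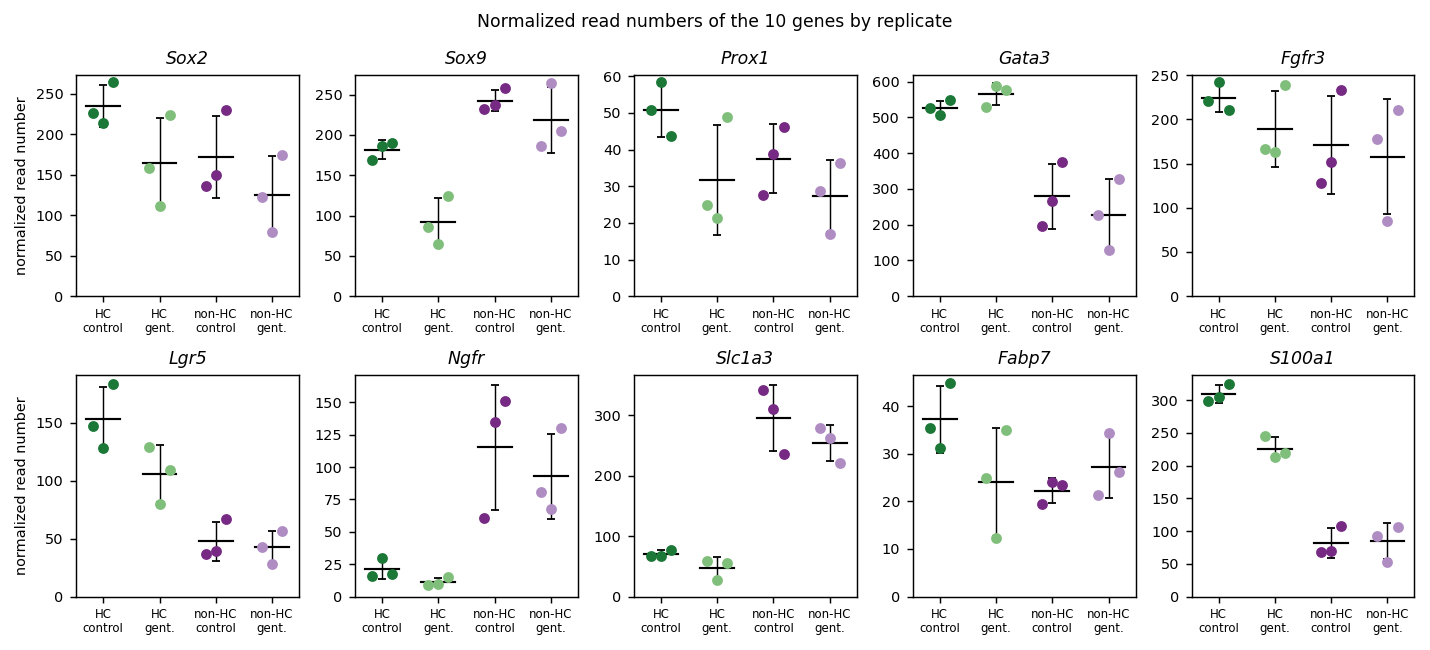
Normalized read number (vertical axis, deposited score, linear) of each of the 10 genes in hair cells (HC, green) and non-hair cells (non-HC, purple), control in dark and gentamicin (gent.) in light color. Points are replicates 1, 2 and 3 from left to right, horizontal bars the mean and vertical bars the SD (n = 3). S100a1, Lgr5 and Gata3 stood higher in all hair cell replicates than in any non-hair cell replicate, and Ngfr and Slc1a3 stood lower. Sox9 in gentamicin-treated hair cells lay below all other replicates.

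S100a1 had normalized read numbers of 298, 306 and 325 in control hair cells and of 68.2, 70.2 and 108 in control non-hair cells. The hair cell replicates were close together and all above the non-hair cell replicates, a difference of 1.94 on the log2 scale (standard error 0.23, adjusted p = 1.19e-05, limma). Per kb of annotated exon S100a1 was also the most abundant of the 10 transcripts in control hair cells, with 445 per kb, ahead of Gata3 with 132 and Sox2 with 114, and Ngfr and Prox1 were the least abundant with 5.84 and 5.95. Lgr5 gave 147, 129 and 183 in control hair cells and 37.0, 39.0 and 67.1 in control non-hair cells, 3.3-fold more in hair cells (log2 1.72, standard error 0.28, adjusted p = 0.000179). The groups did not overlap, although Lgr5 is known as a supporting cell gene.

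Gata3, a zinc finger factor needed for cochlear development, was higher in hair cells by 0.97 on the log2 scale (standard error 0.29, adjusted p = 0.00994). Its control hair cell values of 526, 508 and 548 varied little, while those of the control non-hair cells, 196, 266 and 377, were spread over a wider range. Fabp7, a brain-type fatty acid binding protein, read 35.4, 31.3 and 44.9 in hair cells and 19.4, 24.0 and 23.4 in non-hair cells. The groups did not overlap, but the difference of 0.73 missed the threshold (95% interval 0.03 to 1.43, adjusted p = 0.0554). For non-overlap as such, 4 members were higher and 3 lower in every hair cell replicate, where 34.5% and 44.6% of all genes were.

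Ngfr was the member with the largest difference. It read 16.0, 29.8 and 17.6 in control hair cells against 60.3, 135 and 151 in control non-hair cells, 5.26-fold less in hair cells (log2 -2.40, standard error 0.37, adjusted p = 0.000114). Slc1a3, the glutamate transporter of glia and of supporting cells around inner hair cells, read 66.5, 66.3 and 77.1 in hair cells and 342, 309 and 235 in non-hair cells, 4.18-fold less in hair cells (log2 -2.07, standard error 0.25, adjusted p = 1.56e-05). For both genes each hair cell replicate lay below each non-hair cell replicate. These 2 genes are shared with glia, and the 10 Schwann and satellite glia markers were all lower in control hair cells as well, with a summed normalized read number of 290–375 there and 910–1230 in control non-hair cells. The part of glia in the Ngfr and Slc1a3 differences was not tested.

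Sox2, the factor that marks supporting cells at this age, read 226, 214 and 264 in control hair cells and 136, 149 and 229.5 in control non-hair cells. The groups overlapped, and the difference was 0.49 (95% interval -0.18 to 1.16, adjusted p = 0.169). Prox1, a homeobox factor of pillar and Deiters' cells, and Fgfr3 showed a like picture, with differences of 0.46 (-0.27 to 1.19) and 0.44 (-0.24 to 1.12) and overlapping replicates. Sox9, in contrast, was lower in each control hair cell replicate (169, 186 and 190.3) than in any control non-hair cell replicate (233, 237 and 258), by 0.42 on the log2 scale, which missed the threshold (-0.84 to 0.01, adjusted p = 0.0724). The sorted hair cells therefore carried 137% of the Sox2 level of the non-hair cell mixture and 74.9% of its Sox9 level, but 17.6% of its Ngfr level. In the same replicates, the median periotic mesenchyme marker stood at 4.29% and the median chondrocyte marker at 16.4% of its non-hair cell level.

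The 5 calls held in all 14 other settings that were run. Replicates with the same number deviated together in the 2 control populations. With the replicate number as a block Sox2 was also higher in hair cells (log2 0.49, limma, adjusted p = 0.0187), which made 6 called members. That block also covered the treated replicates, where same-numbered hair cell and non-hair cell replicates gave r = -0.0386 to 0.377. Both genes that narrowly missed the threshold passed in other settings. Fabp7 was called higher with the median of ratios (log2 0.85, adjusted p = 0.0311) and with the compared groups alone (adjusted p = 0.00308). Sox9 was called lower with the compared groups alone (adjusted p = 0.0015), which made 7 called members, and with the mesenchyme share subtracted, a setting chosen after seeing the data (log2 -0.50, adjusted p = 0.0385).

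**Figure D2:**
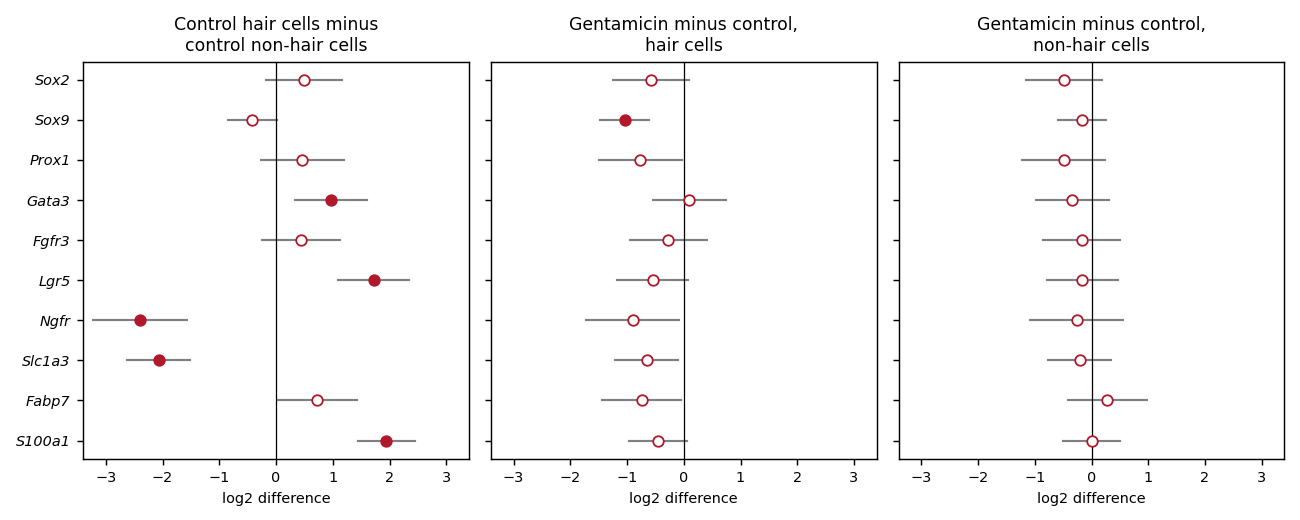
Log2 difference (horizontal axis) of each gene in 3 comparisons: control hair cells minus control non-hair cells (left), gentamicin minus control in hair cells (middle) and in non-hair cells (right). Circles are estimates and lines 95% intervals from limma (n = 3 per group). Filled circles passed at an adjusted p under 0.05: 5 genes at the left, Sox9 in the middle and none at the right.

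In hair cells, 3 h of gentamicin went with less Sox9 mRNA, and Sox9 was the member that passed the test. Sox9 read 169, 186 and 190.3 in control and 85.6, 65.1 and 124 in gentamicin-treated hair cells. All treated replicates lay below all controls, and the level fell to 50.4% of the control mean (log2 -1.04, 95% interval -1.47 to -0.61, adjusted p = 0.00239, limma). Sox9 passed in 14 of 14 other settings, with differences from -1.28 to -0.82. For all genes 33.2% passed in this comparison, 14.8% as higher and 18.4% as lower, so 1 member of 10 is below the background share.

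The other members leaned the same way without passing. The difference was negative for 9 of the 10 genes, and remained negative for each of these 9 in all 14 other settings, scaling included. Over all 10 members, Sox9 included, the median was -0.61, beside -0.09 over all genes tested. Negative differences were thus the more common ones over all genes too. An unadjusted p under 0.05 (limma) was reached by 5 members (Sox9, Prox1, Ngfr, Slc1a3 and Fabp7). It was reached by 7105 of all 16087 genes, so 5 of 10 is near the background share. All treated replicates lay below all controls for Sox9, Ngfr, Slc1a3 and S100a1 (33.1% of all genes did so), and for no member above all controls (21.7% of all genes). Gata3 did not share this shift, with 526, 508 and 548 in control and 529.8, 589 and 578 in treated hair cells (log2 0.10, 95% interval -0.54 to 0.74, adjusted p = 0.825).

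Among the receptor genes, Ngfr read 9.08, 9.44 and 15.1 after gentamicin, below its control values of 16.0, 29.8 and 17.6 (log2 -0.90, 95% interval -1.72 to -0.08, adjusted p = 0.0858). Lgr5 read 129, 80.1 and 109 after gentamicin beside 147, 129 and 183 in controls, with a difference of -0.54 (-1.17 to 0.08, adjusted p = 0.164). The Lgr5 ranges met at their edge. Fgfr3, at 166, 163 and 239 in treated and 220.4, 243 and 210.5 in control hair cells, overlapped (log2 -0.27, -0.95 to 0.41).

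S100a1 was lower in every treated replicate (246, 213 and 219 against 298, 306 and 325), a difference of -0.46 with an interval of -0.96 to 0.05 (adjusted p = 0.15). With the compared groups alone S100a1 passed (limma, adjusted p = 0.00334). The study, with its own models and criteria, listed S100a1 as lower in treated hair cells. Slc1a3 read 59.1, 26.8 and 55.4 after gentamicin, with the middle value far below the others, and 66.5, 66.3 and 77.1 in controls (log2 -0.65, -1.21 to -0.10, adjusted p = 0.0686). Fabp7 read 24.9, 12.2 and 35.0 and overlapped the controls (log2 -0.74, adjusted p = 0.0939).

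Sox2 itself read 158, 111 and 223 in treated hair cells, the last of them within the control range of 214 to 264, and its difference was -0.57 (-1.24 to 0.10, adjusted p = 0.174). Prox1 read 24.9, 21.5 and 49.0 after gentamicin and 50.7, 58.4 and 43.6 before it (log2 -0.77, -1.50 to -0.04, adjusted p = 0.0983). For both genes replicate 3 of the treated hair cells lay among the controls while the other treated replicates lay below them. The Sox9 to Sox2 ratio, chosen after the values were seen, was 0.746, 0.867 and 0.719 in control and 0.539, 0.581 and 0.553 in treated hair cells.

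The treated hair cell replicates differed among themselves more than the controls did. The median SD of the 10 genes was 0.436 on the log2 scale in treated and 0.141 in control hair cells, where the medians over all genes were 0.127 and 0.0945. Replicate 2 of the treated hair cells was the lowest of its group for 8 of the 10 genes, and replicate 3 the highest for 6. Without replicate 3 of the treated hair cells, 3 members passed, with Prox1 (log2 -1.13, adjusted p = 0.0186) and Fabp7 (log2 -1.08, adjusted p = 0.0201) besides Sox9. Without replicate 1, 2 passed, with Slc1a3 (log2 -0.86, adjusted p = 0.0351) besides Sox9.

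Sums of genes listed as markers of other cells also moved in the same replicates. In treated as against control hair cells, the summed normalized read number was 1556–2606 against 3491–4132 for 9 chondrocyte markers, 168–229 against 290–375 for 10 glia markers, 364–443 against 532–781 for 9 periotic mesenchyme markers and 8.95–15.4 against 16.4–31.8 for 7 endothelial markers. The chondrocyte markers Acan, Comp and Hapln1 were under 1 normalized read in each hair cell replicate. Single genes made up a large part of the chondrocyte, mesenchyme and glia sums. In control hair cells Col2a1 read 2490–3006, Pdgfra 249–297 and Sox10 113–135.5. Pdgfra was not called lower in control hair cells than in control non-hair cells (log2 -0.27, limma, adjusted p = 0.266). These sums thus do not measure the amount of the named cell types. The 7 macrophage markers (4.49–6.39 against 3.73–4.65) and the 7 spiral ganglion neuron markers (980–1124 against 1046–1244) did not separate, and the sum of the 12 hair cell markers was 11720–12920 against 13720–14330. By gene, 1 of these 12 was called lower (Cib2) and 0 higher. Their median log2 difference was -0.08, beside -0.09 over all genes tested. With the share of each non-hair cell transcript that the mesenchyme markers give (1.07–1.76% in treated, 2.80–7.22% in control hair cells) taken off the hair cell values, a setting chosen after seeing the data, the Sox9 difference was -1.01 (adjusted p = 0.00327). The part of chondrocytes and glia in the Sox9, Ngfr, Slc1a3 and Fabp7 values was not tested.

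**Figure D3:**
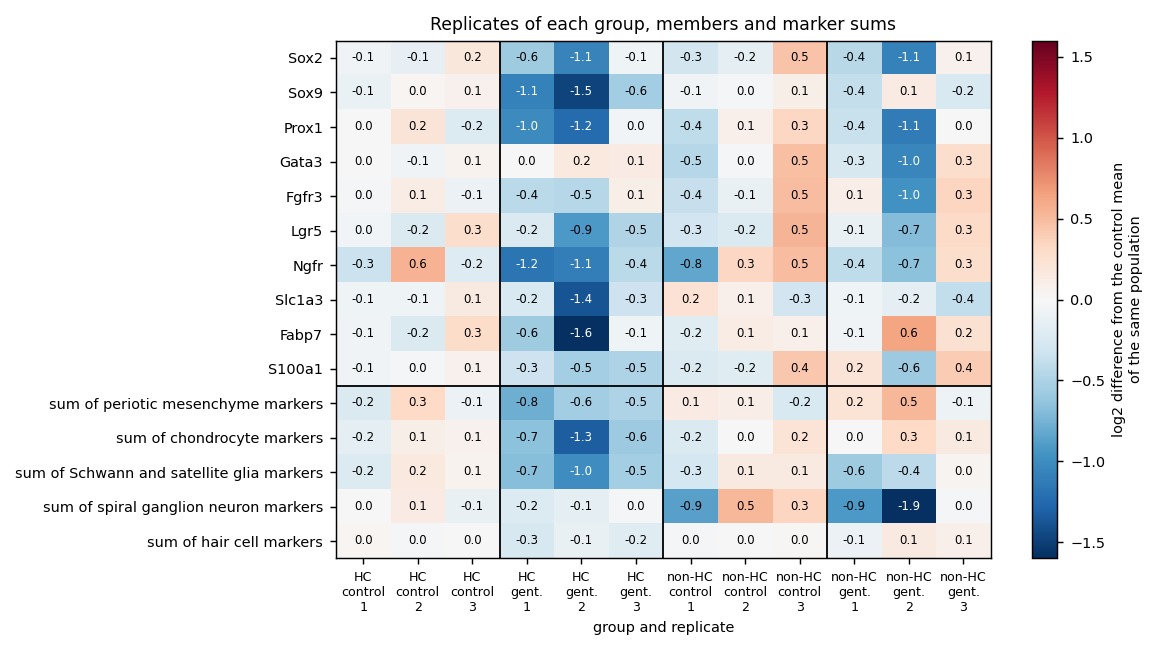
Log2 difference of each replicate (columns, grouped by population and treatment) from the mean log2 level of the control group of the same population, for the 10 genes (top) and for the summed markers of 5 other cell types (bottom). Blue is lower and red higher, with the value printed in each cell. Replicate 2 of the gentamicin-treated hair cells was the lowest of its group for 8 genes, and replicate 2 of the gentamicin-treated non-hair cells was the lowest of the 6 non-hair cell replicates for 6 genes.

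In non-hair cells, 0 of the 10 members passed after gentamicin, and 0 had an unadjusted p under 0.05 (limma). The background was 0.342% of all genes passed, 0.236% as higher and 0.106% as lower, and 2755 genes had an unadjusted p under 0.05. The treated and control replicates of every member overlapped, where 10.1% of all genes were higher and 7.68% lower without overlap. The differences ran from -0.49 (Sox2 and Prox1) to 0.27 (Fabp7), with adjusted p-values of 0.44 to 0.992. Sox9 differed by -0.16 (95% interval -0.59 to 0.26) and S100a1 by 0.01 (-0.50 to 0.51), while the widest interval, that of Ngfr, was -1.08 to 0.56. Except for Sox9 and Fabp7, the intervals included the difference estimated in hair cells.

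The non-hair cell replicates themselves were uneven. Sox2 read 136, 149 and 229.5 in control and 123, 79.1 and 174 in treated non-hair cells, Gata3 read 196, 266 and 377 against 226, 130.4 and 328, and Fgfr3 read 128, 152 and 233 against 177, 84.8 and 211. Of the 6 non-hair cell replicates, treated replicate 2 was lowest for Sox2, Prox1, Gata3, Fgfr3, Lgr5 and S100a1 and highest for Sox9 (265) and Fabp7 (34.3). Control replicate 3 was highest for 7 genes, the same 6 and Ngfr. The spiral ganglion neuron markers summed to 281 in treated replicate 2, against 572 to 1559 in the other non-hair cell replicates, and the periotic mesenchyme markers to 10140 against 5915 to 8163. The part of cell composition in these replicates was not tested. Without treated replicate 2, the Fgfr3 difference turned from -0.17 to 0.22 and that of Lgr5 from -0.17 to 0.09, and without control replicate 3 they were 0.07 and 0.10, none of them passing.

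The responses of hair cells and non-hair cells were then compared directly. None of the 10 members passed the interaction test (limma, adjusted p under 0.05), where 13.4% of all genes did (6.85% higher, 6.56% lower). Of the members, 2 had an unadjusted p under 0.05, a share below that of all genes (4873 of 16087). These were Sox9, whose response was lower in hair cells by 0.87 (95% interval -1.48 to -0.27, adjusted p = 0.0582), and Fabp7, lower by 1.02 (upper bound of the 95% interval -0.03, adjusted p = 0.154). The Sox9 change in hair cells is thus not shown to differ from that in non-hair cells at this threshold. Without replicate 3 of the treated hair cells both passed, Sox9 at -1.12 (adjusted p = 0.0079) and Fabp7 at -1.35 (adjusted p = 0.0448).

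The pathways around these genes were read from 6 lists of genes. Their counts in hair cells are to be read against the 18.4% of all genes that were called lower and the 14.8% called higher. The Notch list showed the largest shift in hair cells. Of 10 genes tested, 7 fell after gentamicin and 0 rose, with a median of -0.94 beside -0.09 over all genes. Hes5, a Notch target of supporting cells, read 62.4, 58.6 and 96.3 in control and 13.4, 13.3 and 29.4 in treated hair cells (log2 -2.02, standard error 0.42, adjusted p = 0.00423). Hes1 (log2 -1.34, adjusted p = 0.00458) and Hey1 (log2 -1.32, adjusted p = 0.00558), 2 more targets, also fell. The groups of Hes5 did not overlap. The ratio of Hes5 to Sox2, set side by side after the values were seen, was 0.273, 0.270 and 0.362 in control and 0.0788, 0.112 and 0.128 in treated hair cells. The count of Notch genes that fell ranged from 5 to 9 over 14 other settings, and 5 was reached without replicate 2 of the treated hair cells. In non-hair cells 0 of the 10 passed, with a median of -0.46 beside -0.01, and in the interaction 1 passed.

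In control cells the Notch ligands stood high in hair cells, Jag2 by 4.32 and Dll1 by 3.80 on the log2 scale, whereas the target Hes1 was 3.22-fold lower there and Hes5, like Sox2, did not pass (log2 0.45, adjusted p = 0.351).

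**Figure D4:**
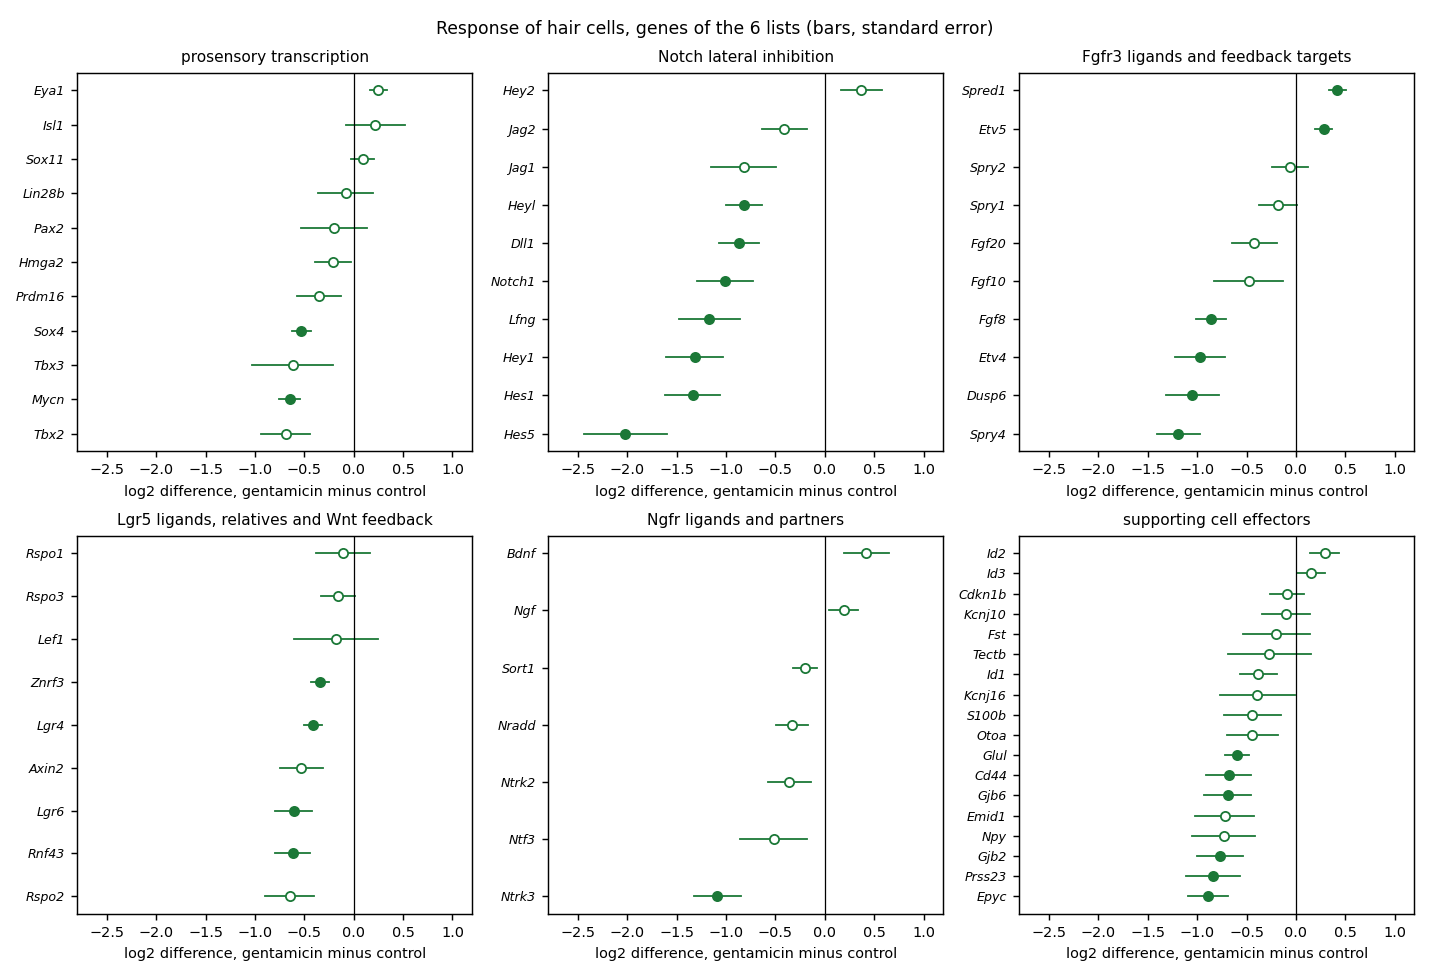
Log2 difference between gentamicin-treated and control hair cells (horizontal axis) for the tested genes of 6 lists, 1 panel per list. Circles are estimates with lines of 1 standard error (limma, n = 3 per group), and filled circles passed at an adjusted p under 0.05. In the Notch list 7 of 10 genes fell, and in the other lists at most 6 passed.

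Around Fgfr3, 10 ligands and feedback genes were tested. The ligand gene Fgf8 stood near the floor in non-hair cells, with 94.6, 84.5 and 101 in control hair cells and at most 1.04 in control non-hair cells, and it fell to 44.4, 46.5 and 65.1 after gentamicin (log2 -0.86, standard error 0.15, adjusted p = 0.00142). The feedback genes Spry4 (log2 -1.19, adjusted p = 0.00214), Dusp6 (log2 -1.05, adjusted p = 0.012) and Etv4 (log2 -0.97, adjusted p = 0.0136) fell with it in hair cells, whereas Spred1 (log2 0.42) and Etv5 (log2 0.28) rose. Spry4, Etv4 and Dusp6 were 14-fold, 5.79-fold and 3.56-fold lower in control hair cells than in control non-hair cells, although Fgfr3 itself did not pass. The list median after gentamicin was -0.45. Without replicate 2 of the control hair cells 2 genes fell, and 1 gene rose without any 1 of the control replicates or without replicate 1 or 2 of the treated hair cells.

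For Lgr5, 9 ligands, relatives and Wnt feedback genes were tested. The relatives Lgr4 (log2 -0.41, adjusted p = 0.0071) and Lgr6 (log2 -0.61, adjusted p = 0.03) and the ubiquitin ligase genes Rnf43 (log2 -0.62, adjusted p = 0.0211) and Znrf3 (log2 -0.34, adjusted p = 0.0169), which limit Wnt receptors, fell in hair cells, and 0 rose. The Wnt target Axin2 fell short of the test (log2 -0.53, adjusted p = 0.0869). This count lay between 1 and 5 over 14 other settings, and it was 1 without replicate 3 of the control or replicate 2 of the treated hair cells, 2 without replicate 1 or 2 of the controls and 2 with equal totals per replicate. Axin2 was 5.14-fold and Lef1 11.1-fold lower in control hair cells than in control non-hair cells, opposite to Lgr5. Lef1 varied from 26.7 to 69.1 among the control non-hair cell replicates. Lgr6 was higher in control hair cells (log2 0.79, limma, adjusted p = 0.00289), the direction of Lgr5. In this comparison 8 of the 9 genes were called lower and 1 higher, beside 42.2% and 31.9% of all genes. The R-spondin gene Rspo4 was listed at 0 reads in all 6 hair cell replicates and was not tested.

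For Ngfr, 7 ligands and partners were tested, and the neurotrophin receptor gene Ntrk3 fell (log2 -1.09, adjusted p = 0.00583). The ligand Bdnf, made by hair cells, read 139.9, 129.9 and 142 in control and 170.3, 199 and 183 in treated hair cells, higher in every treated replicate without passing (log2 0.42, adjusted p = 0.18), and 2.41 to 3.16 in control non-hair cells. The receptor genes Ntrk2 and Ntrk3 were 7.51-fold and 3.57-fold lower in control hair cells, the direction of Ngfr itself.

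Of 18 supporting cell effector genes, 6 fell in hair cells and 0 rose, where 18.4% of all genes were called lower and 14.8% higher, with a median of -0.44. Among them were Epyc, a matrix proteoglycan gene (log2 -0.89, adjusted p = 0.00734), the protease gene Prss23 (log2 -0.84, adjusted p = 0.0337) and Gjb2 (log2 -0.77, adjusted p = 0.025), a gap junction gene of supporting cells. This count was 2 without replicate 3 of the control hair cells or replicate 2 of the treated ones, 3 without replicate 1 or 2 of the controls, and 3 with equal totals or with the mesenchyme share taken off. Fewer of all genes were called lower in these settings as well, 1734 to 2206 of 16087 against 2959. The share-subtracted setting was chosen after seeing the data. Of the 11 prosensory transcription genes reported here, Mycn (log2 -0.65, adjusted p = 0.0013) and Sox4 (log2 -0.53, adjusted p = 0.00203) fell, a share like the 18.4% of all genes called lower, with a median of -0.21. In non-hair cells 0 genes of these 6 lists passed.

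The genes most like each member were searched among 11593 tested genes with a mean score of at least 10, by Pearson's r of log2 values over the 12 replicates. Since the 12 replicates fall into 2 populations, r mainly reads the step between populations where that step is large. Sox2 was most like Igsf9 (r = 0.961) and 4930426D05Rik (r = 0.955). Fgfr3 was most like the homeobox gene Emx2 (r = 0.952) and Sox21 (r = 0.944), a relative of Sox2. Sox9 was most like Tpra1 (r = 0.974) and Pdk2 (r = 0.971), and Prox1 like Sipa1l1 (r = 0.935) and Tmem2 (r = 0.926). Fabp7 had the weakest matches, Erbb4 (r = 0.909) and the proteoglycan gene Bcan (r = 0.9). For the members with a large step between populations, r was 0.981 or more: Gata3 with Crb3 and Camsap3, Lgr5 with Pld1 and Fbxo32, Ngfr with Ddhd1 and Mmp15, Slc1a3 with Cd47 and Abca1, and S100a1 with Prr15l and Ephb1.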

How the data were processed

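Poly(A) RNA was sequenced from 3 biological replicates per group, each a column of the table of its group. The deposited values, treated as a score, are the normalized read numbers plus 1 that the authors made. According to the methods, 50 bp single-end reads trimmed at quality 25 were aligned to mm10 with TopHat 2 in Partek Flow. The methods name RPKM, but the scores were not divided by gene length. The scaling factor is not given in the sources used here. Since the low scores of a replicate are nearly whole multiples of 1 step, reads were recovered from them, and 73.7–75.2% of values under 100 reads came out whole within 0.03.

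For testing, limma 3.58.1 (R 4.3.3) was run on log2 of the score (empirical Bayes with a mean trend, 4 groups in 1 fit, two-sided), with no further pseudocount since the scores hold an offset of 1, which understates changes of low genes. A gene was tested if its recovered reads summed to 100 or more across all 12 replicates, and genes with a Benjamini-Hochberg adjusted p under 0.05 were called. With 3 against 3 an exact permutation test cannot go below p = 0.1. The 2 treatment comparisons share their controls with the population comparison. Python 3.11.15 with pandas 2.3.3, numpy 2.4.6 and scipy 1.17.1 gave the other values, and the fit was tested on simulated data. Replicates were compared with each other and none was a duplicate.

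All members are named, and of each list the called genes with the largest changes, up to 3 in each direction, with the genes tied to Fgfr3, Lgr5 and Ngfr free to be named. The values of Hes5 in control cells were added after they were seen. An item of the prosensory transcription list is not reported here. The members and lists were chosen with earlier results of these data known. Same-numbered control hair cell and control non-hair cell replicates deviated together (r = 0.200 to 0.316 for the 3 pairs, and -0.27 to -0.055 for other numbers), so their numbers were taken to pair them. Alternatives were equal totals, a median of ratios, another offset, other minimums, a replicate block, the compared groups alone and leaving out each replicate, besides the mesenchyme subtraction.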

Additional observations from a re-analysis of the deposited data

Results flagged for a closer look

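No group was tested for single outlying replicates, since each has 3. The following genes of the lists reported here had a response to gentamicin in hair cells that differed from the response in non-hair cells by the interaction test (limma, adjusted p under 0.05), given as hair cell minus non-hair cell response on the log2 scale. None is one of the 10 members. The response was lower in hair cells for the chondrocyte marker Acan (-1.32), the endothelial marker Cldn5 (-1.11), the glia marker Gjc3 (-0.97), Fgf8 (-0.96), Heyl (-0.91), Rnf43 (-0.85), the mesenchyme marker Dcn (-0.84), Sox4 (-0.56) and Lgr4 (-0.52). It was higher in hair cells for Etv5 (0.62) and Spred1 (0.51). Acan stood near the floor in hair cells and Fgf8 in non-hair cells (1.00 to 1.14), so their values there rest on few reads. Cldn5 differed by 0.01 in hair cells, where it read 2.46 to 3.30, and by 1.12 in non-hair cells. For Acan the differences were -0.24 and 1.08. The Cldn5 and Acan values above thus lie mainly in the non-hair cell change.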

How the results depend on the processing

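The 5 calls of the population comparison and the call of Sox9 in hair cells held in all 14 other settings. The number of members called in hair cells was 1, and it was 1 to 3 when leaving out a replicate. With the compared groups alone it was 4 (Sox9, S100a1, Ngfr and Lgr5). In hair cells and in non-hair cells the treated and control samples share only a replicate number (r = 0.0367 to 0.0522 for same-numbered hair cell replicates), and with the replicate block 4 members were called in hair cells (Sox9, Sox2, Lgr5 and Ngfr) and 11 genes in non-hair cells. Leaving out a replicate gave 3423 to 4745 called genes in hair cells, against 5333, with 3423 without control replicate 2. In non-hair cells 55 genes were called, 876 by the criteria of the study, 114 with equal totals, 0 with the compared groups alone (limma, 1789 at an unadjusted p under 0.05), and 2 to 159 when leaving out a replicate (2 without control replicate 1 or 2, 15 and 4 without treated replicate 1 and 2, and 159 without treated replicate 3). In the interaction 1 member passed by the criteria of the study and 0 to 2 when leaving out a replicate (2 without treated hair cell replicate 3), with 1160 to 2377 genes against 2158 (1374, 1160, 1254, 1287 and 1431 without control hair cell replicate 1, control hair cell replicate 2, treated hair cell replicate 2, control non-hair cell replicate 2 and treated non-hair cell replicate 1). Leaving out a replicate turned the sign of uncalled differences: Fgfr3 -0.49 to 0.16 and Sox2 -0.38 to 0.19 in the interaction, and in non-hair cells Fgfr3 -0.43 to 0.22, Gata3 -0.65 to 0.02, Lgr5 -0.40 to 0.10 and S100a1 -0.19 to 0.30. With the mesenchyme share subtracted, a setting chosen after seeing the data, Dcn was 0.11 and Lect1 0.56 in hair cells. The cause of these changes was not tested. In hair cells 2374 genes were higher and 2959 lower, 3185 and 1958 with equal totals, and 2606 and 2074 with the mesenchyme share subtracted. In the interaction 1102 were higher and 1056 lower, 1500 and 716 with equal totals, and 1213 and 696 with the share subtracted. In the population comparison the median of ratios moved the all-gene median from -0.12 to -0.01 and the split from 5130 higher and 6781 lower to 5898 and 6047.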
